A study of Mus musculus with 6 samples.

Results

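The 8 genes described here are Cyp2a and Cyp2b cytochrome P450 genes of a mouse gene cluster on chromosome 7: Cyp2a4, Cyp2a5, Cyp2a12, Cyp2a22, Cyp2b9, Cyp2b10, Cyp2b13 and Cyp2b23. They were taken by gene name, with no cut on their levels or fold changes, and make up 8 of the 34745 genes in the table. A further Cyp2b gene of the region, Cyp2b19, is in the table but is not among the 8. It had 0 counts in all 5 libraries. The mRNA of whole livers was sequenced from WT mice that received saline or an overdose of acetaminophen (APAP, 300 mg/kg by intraperitoneal injection, livers taken at 12 hours). The study's methods name young adult male C57BL/6J mice that were fasted before the injection. The comparison asks how the mRNA levels of these P450 genes differed between livers after APAP and livers after saline. The count columns of 2 APAP libraries (APAP1 and APAP3) and 3 control libraries were used, and a further APAP sample was not analysed here. The control columns are headed WT1, WT2 and WT3. Every sample is WT by its label, so these columns were taken for the saline group, and none could be matched to a given saline sample. No label says which libraries came from which animals, so the p-values measure the spread between these 5 libraries only.

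Cytochrome P450 enzymes are heme proteins of the endoplasmic reticulum that oxidize drugs, steroids and other lipophilic compounds, with electrons passed on by P450 oxidoreductase. In the liver, Cyp2b10 is the classic gene induced by the constitutive androstane receptor (CAR) and is also induced by the pregnane X receptor (PXR), whereas Cyp2a5 hydroxylates coumarin and nicotine and Cyp2a4 hydroxylates steroids. Cyp2a12 is known for hydroxylating steroids and bile acids. Cyp2b9, Cyp2b13 and Cyp2a4 are known as genes with higher mRNA levels in the livers of female mice than of male mice. APAP itself is oxidized to its reactive metabolite mainly by Cyp2e1, a member of the same P450 family, in hepatocytes around the central vein.

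The libraries held between 13378445 and 15976339 gene counts. A count of 3 corresponded to 0.176 to 0.269 CPM, the count scaled to a fixed total per library with trimmed mean of M-values (TMM) factors. The test covered 13734 of the 34745 genes after a filter on low counts, and 14810 genes had no read in these libraries. The sex-linked genes separated the groups in full. Xist, the noncoding RNA of the inactive X chromosome, was at 0.764 and 1.73 CPM in APAP1 and APAP3, against 289.6 to 914.3 CPM in the controls. Ddx3y, a Y-linked gene, had 1344 and 998 counts in APAP1 and APAP3, against 0, 0 and 1 in the controls. The methods name male mice, and the 3 control libraries go against this. APAP and the sex-linked difference therefore cannot be told apart in any value below. Hepatocyte markers were abundant in all libraries (summed 127060 to 177430 CPM with saline and 78571 to 127100 CPM with APAP, 8 of 8 genes tested, 1 called lower). At an unadjusted p under 0.05 by edgeR 3 of them were lower, and DESeq2 called 3 lower. The albumin gene Alb, at 51544 to 129120 CPM, made up most of the sums.

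The cluster spans 1139.8 kb of chromosome 7 (GRCm38), and the members lie in the order Cyp2b10 (chr7:25897620-25926624), Cyp2b13 (chr7:26061497-26096197), Cyp2b9 (chr7:26173411-26210661), Cyp2a4 (chr7:26307169-26315088), Cyp2b23 (chr7:26665227-26686437), Cyp2a5 (chr7:26835305-26843548), Cyp2a22 (chr7:26931631-26939384) and Cyp2a12 (chr7:27029081-27037375). Cyp2b23 and Cyp2a22 are on the minus strand and the others on the plus strand. The genes fall into close pairs by sequence. The coding sequences of Cyp2a4 and Cyp2a5 were 98.4% identical (23 substitutions over 1482 bases), those of Cyp2a12 and Cyp2a22 97.0% (45 substitutions), and those of Cyp2b9 and Cyp2b13 92.7% (107 substitutions). Cyp2b10 was 88.7% identical to Cyp2b13, 87.8% to Cyp2b9 and 87.6% to Cyp2b23. Near-identity limits how reads can be assigned. Of all windows of 50 bases in the longest coding transcript, the share also found in another gene was 40.8% for Cyp2a5, 38.0% for Cyp2a4, 27.5% for Cyp2a12, 27.3% for Cyp2b13, 25.7% for Cyp2a22, 11.2% for Cyp2b9, 9.70% for Cyp2b10 and 4.44% for Cyp2b23. The values of Cyp2a4 and Cyp2a5 are therefore the most open to reads being exchanged, and sums over each pair are given further on.

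The pairs are also alike just before their start sites, and the sequences are shown because genes with nearly the same proximal promoter had unequal estimated log2 fold changes. The 95% intervals of Cyp2b9 (-3.78 to -1.45) and Cyp2b13 (-9.18 to -3.31) overlapped. So did those of Cyp2a4 (-4.48 to -1.33) and Cyp2a5 (-1.89 to -0.70). The intervals of Cyp2a12 (-0.82 to 0.38) and Cyp2a22 (-2.29 to -1.18) did not overlap. All are RefSeq sequences (GRCm38.p6), written 5′ to 3′, and end before both the RefSeq start and the start in the deposited annotation. Capitals mark the bases that differ within a pair. Cyp2b13 (chr7:26061245-26061494, plus strand) and Cyp2b9 (chr7:26173159-26173408, plus strand) differed by 2 substitutions over 250 bases, an identity of 99.2%.
Cyp2b13: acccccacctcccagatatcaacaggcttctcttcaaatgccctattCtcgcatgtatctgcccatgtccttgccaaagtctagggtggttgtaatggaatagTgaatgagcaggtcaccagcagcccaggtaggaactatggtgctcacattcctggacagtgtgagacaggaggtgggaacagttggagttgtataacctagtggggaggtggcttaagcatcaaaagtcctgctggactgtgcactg
Cyp2b9: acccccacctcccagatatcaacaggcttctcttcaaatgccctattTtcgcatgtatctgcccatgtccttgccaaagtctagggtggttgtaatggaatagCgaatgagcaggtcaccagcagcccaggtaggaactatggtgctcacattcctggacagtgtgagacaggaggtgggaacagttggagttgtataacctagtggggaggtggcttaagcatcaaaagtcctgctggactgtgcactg
Cyp2a5 (chr7:26835089-26835304, plus strand) and Cyp2a4 (chr7:26306943-26307158, plus strand) differed by 4 substitutions over 216 bases, an identity of 98.1%.
Cyp2a5: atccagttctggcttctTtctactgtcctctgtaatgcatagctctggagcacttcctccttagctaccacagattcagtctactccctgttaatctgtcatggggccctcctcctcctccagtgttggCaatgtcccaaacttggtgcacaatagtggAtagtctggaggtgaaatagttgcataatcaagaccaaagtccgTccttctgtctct
Cyp2a4: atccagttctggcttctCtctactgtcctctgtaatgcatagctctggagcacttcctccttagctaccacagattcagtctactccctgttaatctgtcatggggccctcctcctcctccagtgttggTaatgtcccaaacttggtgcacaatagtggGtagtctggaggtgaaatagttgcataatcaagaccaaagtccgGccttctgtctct
Cyp2a12 (chr7:27028840-27029078, plus strand) and Cyp2a22 (chr7:26939387-26939636, minus strand) differed by 23 substitutions and 11 gap positions over 250 aligned positions, an identity of 86.4%. Their differences lie mostly in the distal end.
Cyp2a12: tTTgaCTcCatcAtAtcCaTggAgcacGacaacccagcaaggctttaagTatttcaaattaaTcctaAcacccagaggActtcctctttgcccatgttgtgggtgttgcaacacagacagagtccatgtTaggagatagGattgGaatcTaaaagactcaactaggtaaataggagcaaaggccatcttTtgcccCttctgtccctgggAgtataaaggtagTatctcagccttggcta
Cyp2a22: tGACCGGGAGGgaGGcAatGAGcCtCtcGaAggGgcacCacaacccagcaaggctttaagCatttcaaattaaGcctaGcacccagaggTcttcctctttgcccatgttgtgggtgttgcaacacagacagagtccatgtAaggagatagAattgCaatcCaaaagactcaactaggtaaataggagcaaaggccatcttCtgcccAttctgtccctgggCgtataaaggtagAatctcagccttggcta

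Over windows of 300 bases around the RefSeq starts (250 before and 50 after), 8 of 8 members had a sequence, and motifs were searched on both strands. The TATA box TATAAA was found in all 4 Cyp2a members, 28, 29, 39 and 28 bases before the RefSeq start of Cyp2a4, Cyp2a5, Cyp2a12 and Cyp2a22, and in no Cyp2b member. It occurs in 13.6% of all 32851 promoters. The nuclear receptor half-site AGGTCA, found in 16.3% of all promoters, was present in 5 members: Cyp2b9 and Cyp2b13 (138 bases before the start in both), Cyp2b23 (164 bases before it), and Cyp2a4 and Cyp2a5 (after the start). The direct repeats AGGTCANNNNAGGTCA and AGGTCANAGGTCA and the STAT5 motif TTCNNNGAA, found in 0.015%, 0.04% and 8.30% of all promoters, were in no member window. These matches describe the letters only.

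Of the 8 members, 7 passed the filter on low counts, and 6 of these were lower in the APAP libraries at an adjusted p under 0.05 by edgeR's quasi-likelihood test, adjusted by Benjamini-Hochberg over all tested genes. None was higher, also at an unadjusted p under 0.05 (0 of 7) and by DESeq2 (0, with 6 lower). By the same rule 7.23% of all tested genes were called, 3.53% lower and 3.7% higher. In the same 6 members both APAP libraries lay below all 3 saline libraries, against 20.1% of all tested genes. The median log2 fold change of the 7 tested members was -2.62, beside 0.03 over all tested genes. Scaling by library size alone moved the median of all genes to 0.42 and the split of calls from 485 lower and 508 higher to 297 lower and 1042 higher. Under that scaling the log2 fold changes of the 6 members stayed negative. Fewer hepatocytes and less of an mRNA per hepatocyte cannot be told apart in whole liver. The number of members called fell to 1 without APAP3 and without WT2, and to 2 without WT1.

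**Figure D1:**
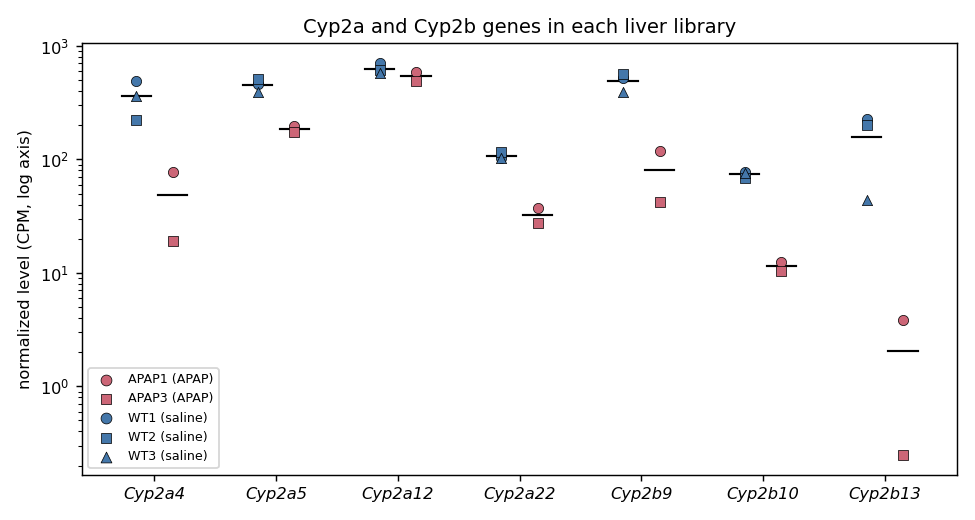
Normalized level (TMM-scaled CPM, log axis) of the 7 tested Cyp2a and Cyp2b genes in each library, with blue symbols for the 3 saline libraries, red symbols for the 2 APAP libraries and a black bar at each group mean. Cyp2a12 overlaps between the groups, the other 6 genes do not, and Cyp2b13 spans from 0.247 CPM in APAP3 to 224.8 CPM in WT1. Cyp2b23, at 0 counts in all libraries, is not drawn.

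Cyp2b10, the CAR target, was lower by a steady amount. Its levels were 12.4 and 10.4 CPM in APAP1 and APAP3 and 78.2, 68.9 and 75.8 CPM in WT1, WT2 and WT3. The libraries of each group lay close together and far from the other group. The mean was 11.4 ± 1.38 CPM (SD, n = 2) with APAP and 74.3 ± 4.81 CPM (SD, n = 3) with saline, or 15.4% of the saline level. The log2 fold change was -2.70 (SE 0.22, adjusted p = 0.00224, edgeR). Of the members, Cyp2b10 alone kept its call in all 5 fits that left out a library and in the 9 other alternatives.

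Cyp2b9, with a higher mRNA level in female than in male mouse liver as background, stood at 118.6 and 42.2 CPM after APAP, against 525.1, 567.4 and 388.7 CPM with saline. Both APAP libraries were low, APAP3 the more so, and the groups did not overlap. The mean was 16.3% of the saline level (80.4 ± 54.0 CPM, SD, n = 2, against 494 ± 93.4 CPM, SD, n = 3), with a log2 fold change of -2.62 (SE 0.49, adjusted p = 0.0286, edgeR). The call was lost without APAP3, WT1 or WT2 (adjusted p = 0.0620, 0.0708 and 0.102, edgeR), with log2 fold changes of -2.07, -2.55 and -2.51.

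Cyp2b13, the closest relative of Cyp2b9 in the cluster and also female-biased as background, had the largest log2 fold change of the members. Its counts were 65 and 4 after APAP, against 2508, 3005 and 663 after saline. These correspond to 3.82 and 0.247 CPM with APAP and to 224.8, 199.6 and 44.3 CPM with saline. The 2 APAP libraries differed from each other 15.4-fold and the saline libraries up to 5.08-fold, with WT3 the low one, and even so the groups were apart. The mean with APAP was 1.30% of the saline mean (2.03 ± 2.53 CPM, SD, n = 2, against 156 ± 97.8 CPM, SD, n = 3). The log2 fold change was -6.25 with a wide error (SE 1.24, adjusted p = 0.0338, edgeR). Without APAP3, WT1 or WT2 it was -5.36, -5.87 and -6.04 and no longer called (adjusted p = 0.0694, 0.0726 and 0.105, edgeR), and without APAP1 it was -9.25. A pseudogene, Rnf170-ps, lies within Cyp2b13 on the same strand and had 15 to 52 counts.

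Cyp2b23 had 0 counts in all 5 libraries and was not tested, and its level was under the 0.176 to 0.269 CPM that 3 counts represent.

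Among the Cyp2a genes, Cyp2a4 was the most variable. Its levels were 77.0 and 19.1 CPM with APAP and 494.5, 224.0 and 365.1 CPM with saline. The 2 APAP libraries differed 4.03-fold and the saline libraries up to 2.21-fold, with the groups apart. The APAP mean was 13.3% of the saline mean (48.1 ± 41.0 CPM, SD, n = 2, against 361 ± 135 CPM, SD, n = 3), with a log2 fold change of -2.91 (SE 0.66, adjusted p = 0.0479, edgeR). The call sits at the threshold. It was lost without APAP3, WT1, WT2 or WT3 (log2 fold changes from -3.16 to -2.24, adjusted p from 0.0752 to 0.105, edgeR), and without APAP1 the log2 fold change was -4.24. It was also lost with upper-quartile scaling (adjusted p = 0.0529, edgeR) and with library size alone (adjusted p = 0.0635, edgeR). A noncoding gene on the opposite strand, RP23-267I20.3, had 0 to 30 counts.

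Cyp2a5, the coumarin hydroxylase, stood at 197.2 and 173.3 CPM after APAP, against 462.9, 507.9 and 392.2 CPM with saline. Each group was tight, and the APAP mean was 40.8% of the saline mean (185 ± 16.9 CPM, SD, n = 2, against 454 ± 58.3 CPM, SD, n = 3). The log2 fold change was -1.29 (SE 0.25, adjusted p = 0.0325, edgeR). Of the 6 called members, its log2 fold change was the nearest to 0. The call was lost without APAP1, APAP3, WT1 or WT2 (log2 fold changes from -1.39 to -1.21, adjusted p from 0.0650 to 0.156, edgeR) and with library size alone (-0.89, adjusted p = 0.0740, edgeR).

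Cyp2a22 stood at 37.1 and 27.3 CPM after APAP, against 103.1, 115.3 and 103.9 CPM with saline, with no overlap. The APAP mean was 30.0% of the saline mean (32.2 ± 6.94 CPM, SD, n = 2, against 107.4 ± 6.81 CPM, SD, n = 3), and the log2 fold change was -1.74 (SE 0.23, adjusted p = 0.0110, edgeR). It was not called without APAP3 (-1.54, adjusted p = 0.0647, edgeR) or WT2 (-1.68, adjusted p = 0.0595, edgeR).

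Cyp2a12, its near copy and the most abundant member by CPM, did not pass the test. Its levels were 587.4 and 494.4 CPM with APAP and 706.9, 611.6 and 572.3 CPM with saline, so that the groups overlapped. The means were 541 ± 65.7 CPM (SD, n = 2) and 630 ± 69.2 CPM (SD, n = 3). The log2 fold change was -0.22 (SE 0.25, adjusted p = 0.643, edgeR), with a 95% interval from -0.82 to 0.38, and with library size alone its sign turned to 0.19. The lower end of the interval is above the point estimate of each of the 6 genes that were called.

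Summing the counts of near copies gives a pair total that an exchange of reads within the pair leaves unchanged. An exchange with a gene outside the pair is not covered. For Cyp2a5, 40.8% of the windows of 50 bases were found in any other gene and 31.0% in Cyp2a4. Cyp2a4 and Cyp2a5 together stood at 274.2 and 192.4 CPM after APAP, against 957.3, 732.0 and 757.3 CPM with saline (log2 fold change -1.81, SE 0.30, adjusted p = 0.0209, edgeR). Cyp2b9 and Cyp2b13 together stood at 122.4 and 42.5 CPM after APAP, against 749.9, 767.1 and 433.0 CPM with saline (-2.98, SE 0.55, adjusted p = 0.0274, edgeR). Both totals were lower in both APAP libraries. How much each gene of a pair contributed still rests on how reads were split between them. The sum of Cyp2a12 and Cyp2a22 had a log2 fold change of -0.36 (adjusted p = 0.431, edgeR), most of its counts being those of Cyp2a12. For Cyp2b13, the pseudogene Gm45225 shares more windows of 50 bases (13.8%) than Cyp2b9 does and is not in the sum, and it had 0 counts in both APAP libraries and 1, 0 and 1 counts in WT1, WT2 and WT3. The first sum lost its call without APAP1, APAP3 or WT2 (adjusted p = 0.0859, 0.0985 and 0.0839, edgeR) and the second without APAP3, WT1 or WT2 (adjusted p = 0.0672, 0.0680 and 0.0969, edgeR).

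**Figure D2:**
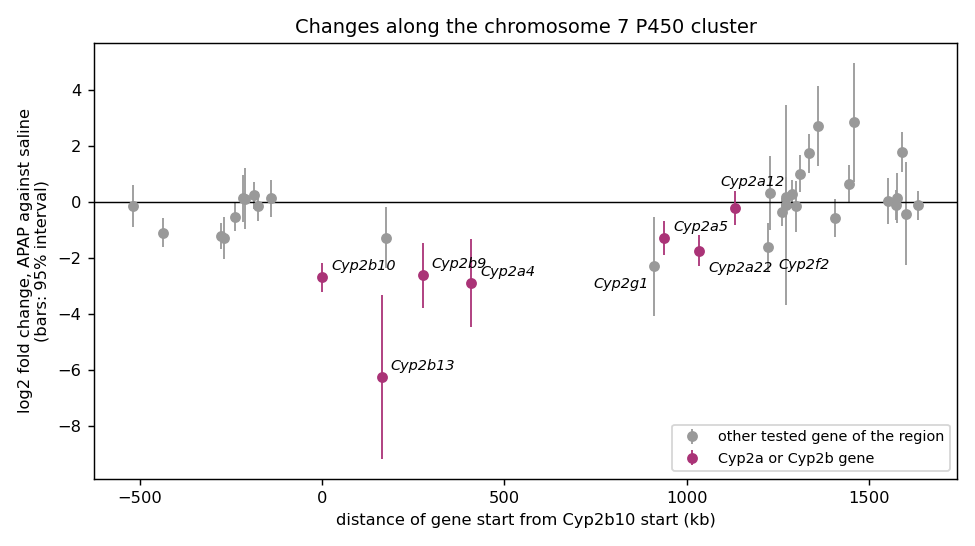
Log2 fold change of APAP against saline (points, with 95% intervals as bars) for tested genes of the cluster and of 500 kb on either side, by the distance of each gene's start from that of Cyp2b10 in kb. The 4 members within 409.5 kb of Cyp2b10 lie at -2.62 or below, the 3 Cyp2a members at 937.7 kb and beyond lie between -1.74 and -0.22, and the other tested genes have a median of -0.11.

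By position, Cyp2b10, Cyp2b13, Cyp2b9 and Cyp2a4, whose starts fall within 409.5 kb, had log2 fold changes of -2.70, -6.25, -2.62 and -2.91. Cyp2a5, Cyp2a22 and Cyp2a12, from 937.7 kb on, had -1.29, -1.74 and -0.22. A trend along the chromosome was not tested. Of 64 other genes in the cluster or within 500 kb of it, 31 were tested, and their median log2 fold change was -0.11. Atp5sl, Ceacam1 and Cyp2f2 were called lower and Adck4, Numbl and Sertad1 higher. Each of these 6 was named after its value was seen, apart from Cyp2f2. The lower calls numbered 0 without APAP1, APAP3 or WT2 and 1 without WT1, and the higher calls 0 without APAP1 or WT2. The other 25 tested genes of the region were not called. Within the cluster, Cyp2g1, a gene of the olfactory mucosa, had a log2 fold change of -2.29 at under 5 CPM (adjusted p = 0.117, edgeR), Cyp2t4 had 0 counts in all libraries, and Cyp2s1 was not tested, with 164 and 3 counts after APAP, against 7, 4 and 6 after saline.

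Levels of different genes were compared per kilobase of exon. With saline, the order by mean CPM per kilobase was Cyp2b9 (263), Cyp2a5 (219), Cyp2a4 (208), Cyp2a12 (182), Cyp2b13 (83.3), Cyp2b10 (35.2) and Cyp2a22 (31.2). Of the neighbours in this order, only Cyp2a12 and Cyp2b13 did not overlap between libraries. With APAP the order became Cyp2a12 (156), Cyp2a5 (89.4), Cyp2b9 (42.9), Cyp2a4 (27.7), Cyp2a22 (9.35), Cyp2b10 (5.41) and Cyp2b13 (1.08), and of these neighbours only Cyp2b9 and Cyp2a4 overlapped. The APAP means of 3 genes rest on which library is kept: without APAP1 or APAP3 they were 10.4 and 43.1 for Cyp2a4, 21.2 and 61.5 for Cyp2b9, and 0.124 and 1.98 for Cyp2b13. Cyp2a12 moved from rank 4 to rank 1 while its own level overlapped between the groups. The saline order depends on the length used. With the longest protein-coding transcript as length, chosen after seeing the data because the exons of Cyp2a12 unite to 3457 bases and its coding transcript has 1681, Cyp2a12 was also first with saline (375 against 263 for Cyp2b9, no overlap).

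Taken as subfamilies, the Cyp2a genes summed to 320.1 and 245.6 CPM per kilobase after APAP and to 742.2, 584.3 and 595.0 with saline, a mean of 44.2% of saline. The Cyp2b genes summed to 71.1 and 27.6 CPM per kilobase after APAP and to 436.8, 441.5 and 266.7 with saline, a mean of 12.9%. Both sums were lower in both APAP libraries. The sums, and the shares below, use the union of exons as length and were not computed with the coding transcript. With the coding transcript the level of Cyp2a12 was 375 with saline and 322 with APAP, instead of 182 and 156. Its part of the Cyp2a sum thus depends on the length used. With the union of exons the composition of each subfamily also differed. Cyp2a12 made up 53.1% and 58.2% of the Cyp2a sum with APAP and 27.6%, 30.3% and 27.8% with saline. Cyp2a4 made up 13.8% and 4.48% with APAP and 38.3%, 22.1% and 35.3% with saline, whereas the shares of Cyp2a5 overlapped. In the Cyp2b sum, Cyp2b9 made up 88.9% and 81.6% with APAP and 64.1%, 68.5% and 77.7% with saline, and Cyp2b13 made up 2.86% and 0.478% with APAP and 27.4%, 24.1% and 8.86% with saline.

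**Figure D3:**
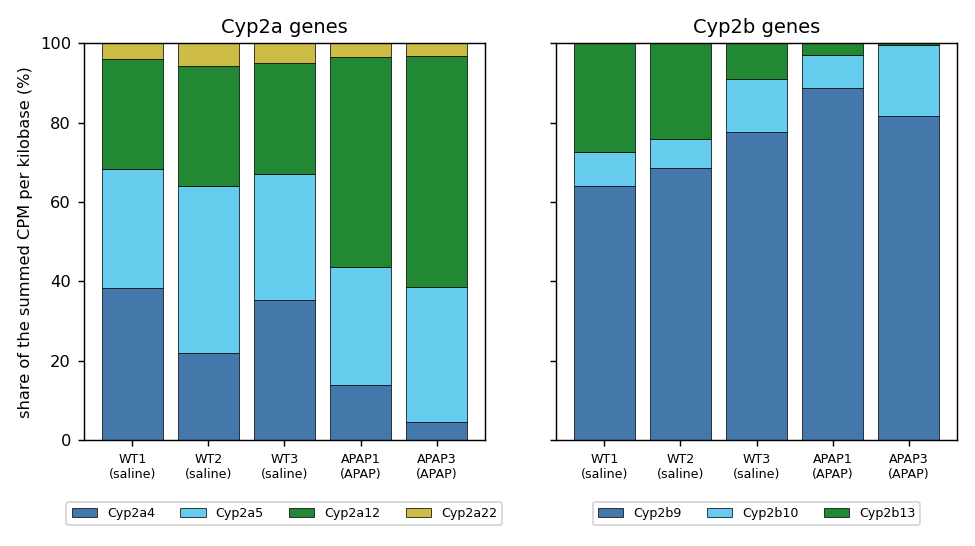
Share (%) of each gene in the summed CPM per kilobase (union of exons as length) of the Cyp2a genes (left) and Cyp2b genes (right), with 1 stacked bar per library. The Cyp2a12 part is wider in APAP1 and APAP3 (53.1% and 58.2%) than in the saline libraries (27.6% to 30.3%), and the Cyp2b13 part is 2.86% and 0.478% there.

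Ratios between members within a library do not depend on how libraries were scaled against each other. The ratio of Cyp2b9 to Cyp2b13 (CPM per kilobase) was 31.0 and 171 with APAP and 2.33, 2.84 and 8.77 with saline, 18.8-fold higher with APAP on the geometric mean. For the pair with the next closest promoters, Cyp2a5 to Cyp2a4, the ratio was 2.15 and 7.61 with APAP and 0.785, 1.90 and 0.901 with saline, 3.66-fold higher. In both of these near-identical pairs the groups did not overlap. The ratio of Cyp2a12 to Cyp2a22 was 15.8 and 18.0 with APAP and 6.83, 5.29 and 5.49 with saline (2.89-fold), and that of Cyp2a12 to Cyp2a5 was 1.79 and 1.71 with APAP and 0.916, 0.722 and 0.875 with saline (2.10-fold). Cyp2b9 to Cyp2b10 overlapped, at 10.8 and 4.55 with APAP and 7.56, 9.27 and 5.78 with saline. With 2 libraries against 3, the smallest two-sided exact permutation p is 0.2, which the first 4 of the 5 ratios had (adjusted p = 0.25), so none could pass a threshold of 0.05.

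**Figure D4:**
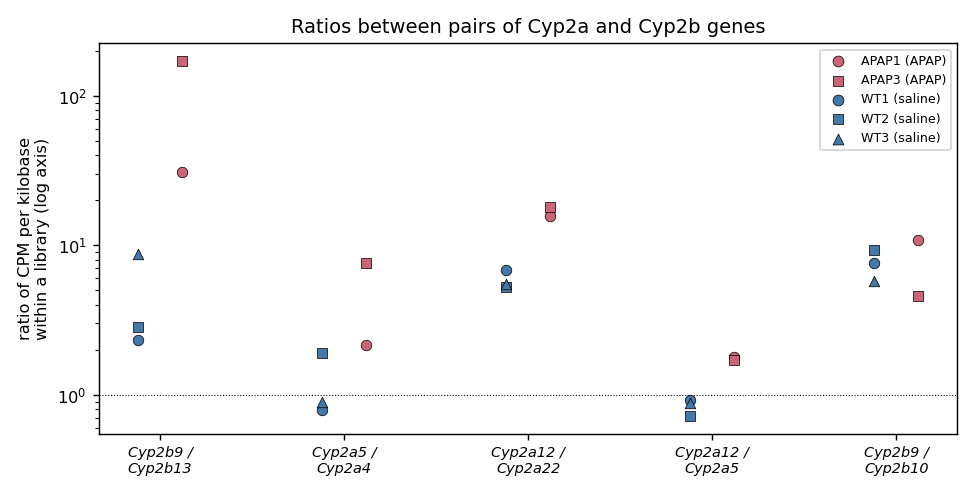
Ratio of CPM per kilobase between 5 pairs of genes within each library (log axis), with blue symbols for saline and red symbols for APAP. In the first 4 pairs both APAP libraries lie above all saline libraries, and Cyp2b9 to Cyp2b10 overlaps.

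The 2 APAP libraries also differed from each other across the members. All 7 members with counts were higher in APAP1 than in APAP3, against 48.1% of all tested genes with counts in these libraries. The gap was widest for Cyp2b13 (15.4-fold) and Cyp2a4 (4.03-fold). It was small for Cyp2a5 (1.14-fold). No cause of this was tested.

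The receptors and partners on which these genes depend did not pass the test. Nr1i3, which encodes CAR, stood at 283.9 and 195.1 CPM after APAP, against 254.4, 610.9 and 579.6 CPM with saline (log2 fold change -1.01, adjusted p = 0.206, edgeR), and WT1 lay within the APAP range. Nr1i2, which encodes PXR, had a log2 fold change of -0.52 (adjusted p = 0.208, edgeR), Rxra, the partner of both receptors, -0.55 (adjusted p = 0.197, edgeR), and Hnf4a, a hepatocyte transcription factor, -0.95 (adjusted p = 0.172, edgeR). The electron donors Por and Cyb5a had log2 fold changes of 0.23 and -0.59, and Alas1, which starts heme synthesis, 0.92 (adjusted p = 0.796, 0.199 and 0.239, edgeR). By edgeR 0 of these 7 genes were called, 3 were lower at an unadjusted p under 0.05, and DESeq2 called 3 lower. For Nr1i2, Rxra, Hnf4a and Cyb5a both APAP libraries lay below all saline libraries, as in 20.1% of all tested genes. For Alas1 both lay above them, and Por overlapped like Nr1i3.

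Of 17 other targets of CAR and PXR, all tested, 6 were lower, 1 was higher and the median log2 fold change was -1.28. The gene lists here and below share genes, so their counts are not separate. Cyp2c29, Cyp2c50 and Cyp2c55 are also among the other Cyp2 genes, and Cyp1a2 and Aldh1a1 are also centrilobular markers. Cyp2e1 and Cyp2f2 likewise stand in several lists. Cyp2d9 and Cyp2u1, the 2 other Cyp2 genes higher at an unadjusted p under 0.05 by edgeR, are also on the male-biased list. Cyp3a11, the main PXR target, stood at 614.1 and 241.7 CPM after APAP, against 3631, 2697 and 1770 CPM with saline (log2 fold change -2.66, adjusted p = 0.0374, edgeR). The others called lower were Cyp2c29, Cyp2c50, Cyp1a2, Ugt1a1 and Ephx1, with log2 fold changes from -3.78 to -1.38, and Gadd45b, a stress-response gene, was higher (1.73, adjusted p = 0.0208, edgeR). The transporters Abcc2 and Abcc3 had -0.37 and 0.04 (adjusted p = 0.580 and 0.963, edgeR). The lower calls numbered 2 without APAP1 or WT2 and 3 without APAP3 or WT1, and Gadd45b was not called without APAP1, WT1 or WT2.

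Low levels were also found among the 41 other Cyp2 genes. Of these, 27 were tested, 11 were lower, none was higher and the median log2 fold change was -1.64. DESeq2 called 17 lower and 2 higher, 2 were higher at an unadjusted p under 0.05 by edgeR, and without APAP1 edgeR called 6 lower. The called genes with the lowest log2 fold changes were Cyp2c40 (-9.29), Cyp2c69 (-9.10) and Cyp2c37 (-5.76). Those nearest to 0 were Cyp2f2 (-1.61), Cyp2e1 (-2.34) and Cyp2c68 (-2.88). Cyp2c40 had 8 and 9 counts in APAP1 and APAP3, and Cyp2c69 had 2 and 35. APAP and the sex-linked difference cannot be told apart in these values either. Cyp2e1, which oxidizes APAP, stood at 782.5 and 1593 CPM after APAP, against 8354, 5265 and 4364 CPM with saline (adjusted p = 0.0418, edgeR). Cyp2f2, a gene of periportal hepatocytes within the same cluster, had an adjusted p of 0.0484 (edgeR).

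**Figure D5:**
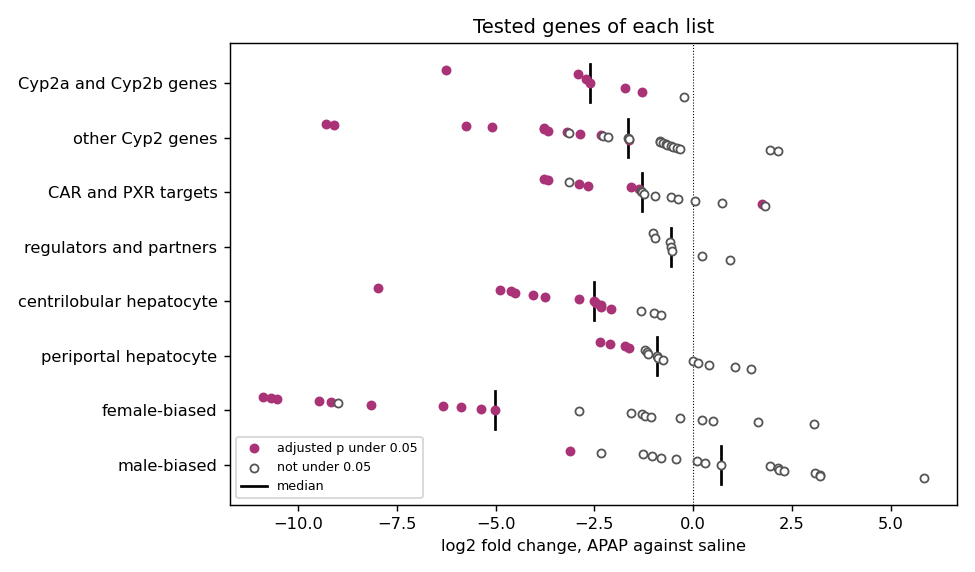
Log2 fold change of APAP against saline for each tested gene of 8 lists, with filled points at an adjusted p under 0.05 (edgeR), open points otherwise and a black line at each median. The median is -2.62 for the Cyp2a and Cyp2b genes, -1.64 for the other Cyp2 genes, -5.02 for the female-biased list and 0.71 for the male-biased list.

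The members stood beside differences in cell-type and sex-biased genes. Of 15 markers of centrilobular hepatocytes, the cells in which many P450 genes are expressed, 12 were lower, with a median log2 fold change of -2.50 and a summed level of 10932 to 17958 CPM with saline and 1751 to 3152 CPM with APAP. Without APAP1 or WT2, 5 and 4 of them were called. Of 15 periportal markers, 4 were lower (median -0.90, summed level 14754 to 15508 CPM against 8044 to 8948 CPM), and 0 without APAP1 and 1 without APAP3 or WT2. Neutrophil markers summed to 4.72 to 8.89 CPM with saline and 80.5 to 124.7 CPM with APAP (8 of 9 tested genes higher), and cholangiocyte markers to 47.1 to 52.0 CPM and 347.0 to 355.4 CPM (2 of 5 higher). By edgeR 0 of the 9 Kupffer cell, 7 sinusoidal endothelial, 7 stellate and 4 tested lymphocyte markers were called, with 1, 2, 1 and 0 at an unadjusted p under 0.05 and 1, 0, 0 and 0 by DESeq2. Of 6 monocyte markers, 3 were higher. The part of these cell types in the member values was not tested.

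Of 21 genes known as female-biased in mouse liver, with the members left out, 10 were lower and 0 higher by edgeR (1 higher at an unadjusted p under 0.05, 0 by DESeq2), with a median log2 fold change of -5.02. Sult2a1 stood at 0.294 and 0.309 CPM after APAP, against 274.1, 443.7 and 656.0 CPM with saline. Of 17 tested male-biased genes, 1 was lower (Ugt2b1), 0 were higher and the median was 0.71, whereas 7 were higher at an unadjusted p under 0.05, DESeq2 called 5 higher and edgeR without APAP1 called 6. Serpina1e and Mup20, both on the male-biased list, stood at 192.1 and 97.9 CPM in APAP1 and at 11519 and 1045 CPM in APAP3. Of the 20 male-biased genes with counts in these libraries, 17 were higher in APAP3. Of the 19 female-biased genes with counts there, 11 were also higher in APAP3 and 8 in APAP1. Several of them had few counts in APAP1 and APAP3, such as Sult2a1 (5 and 5), Sult3a1 (2 and 5), A1bg (0 and 6) and Cyp3a16 (2 and 0). The split of this list is therefore not a contrast to the members, of which all 7 with counts were higher in APAP1.

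The genes whose pattern over the 5 libraries was most like that of a member were found by the root mean square (RMS) difference of log2 CPM, each gene centred on its own mean. Nearest to Cyp2b10 were Ugt1a9 (0.165), Cyp27a1 (0.165), Acmsd (0.183), Prodh (0.204) and Aldh3a2 (0.211), which encode a glucuronosyltransferase, a sterol hydroxylase, a decarboxylase of tryptophan breakdown, proline dehydrogenase and a fatty aldehyde dehydrogenase. Nearest to Cyp2a5 were Pbld2 (0.0576), Rnf144b (0.0578), Mccc1 (0.0870), Slc25a21 (0.0935) and Dhdh (0.0951). Nearest to Cyp2b9 were Nt5e (0.152), Rfx4 (0.161), Cyp3a59 (0.166), Cyp2c55 (0.174) and Slc47a1 (0.194), of which Cyp3a59 and Cyp2c55 are P450 genes. In APAP3, Rfx4 (0.185 CPM) and Cyp2c55 (0.124 CPM) were at or under the level of 3 counts, so their distances rest partly on few counts. The distances around Cyp2a5 were smaller than those around the other 2 members. With library size alone as scaling, 5, 4 and 5 of the 5 nearest genes were the same for Cyp2b10, Cyp2a5 and Cyp2b9.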

How the data were processed

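Liver mRNA was sequenced by the authors on an Illumina NovaSeq instrument. Per the study's methods, the authors obtained the read counts with HISAT2 and the FPKM values with StringTie. The submitters' processing notes name the builds GRCm38 and mm10. The deposited values used here are raw counts per gene in 5 columns, and 5 further FPKM columns were not used. Whether counting used strand, and how reads matching several genes were counted, is not given in the sources used here. The start and end of all 8 members in the file were those of GENCODE M21.

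Counts were analysed over the whole table with edgeR 4.0.16 in R 4.3.3, with filterByExpr (minimum count 10, minimum total 15), TMM scaling, the quasi-likelihood test and Benjamini-Hochberg adjustment at 0.05, without covariates. CPM values are scaled by TMM. Levels per kilobase used the union of exons. Alternatives were DESeq2 1.42.0, the likelihood ratio and exact tests, other scalings and filters, a fold change of at least 1.5 with an unadjusted p, sums of near copies and each library left out. The scripts were tested on simulated data. Counts of any 2 libraries differed by more than sampling noise (chi-square divided by its degrees of freedom, 43.2 to 92.2 within groups).

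The members and gene lists were chosen with earlier results of these data known. The named genes are all members, the receptor, partner and target lists, Cyp2 genes of the cluster with Cyp2e1, the 3 highest and 3 lowest called Cyp2 genes, and the 5 nearest genes of 3 members.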

Additional observations from a re-analysis of the deposited data

How the results depend on the processing

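No paired analysis was possible because the saline columns carry no number that ties them to a numbered saline sample. All 6 called members kept a negative log2 fold change in every alternative run. With library size alone, Cyp2a12 turned to 0.19 and the sum of Cyp2a12 and Cyp2a22 to 0.048, Cyp2a4 (-2.41) and Cyp2a5 (-0.89) lost their calls, and Cyp2a4 (-2.86) also did with upper-quartile scaling. Cyp2a22 summed with Cyp2a12 gave -0.36, since most of the counts are those of Cyp2a12. Leaving out each library in turn gave log2 fold changes of -4.24 to -2.24 for Cyp2a4, -1.39 to -1.21 for Cyp2a5, -1.97 to -1.54 for Cyp2a22, -3.54 to -2.07 for Cyp2b9, -9.25 to -5.36 for Cyp2b13, -2.08 to -1.58 for Cyp2a4 with Cyp2a5 and -3.93 to -2.42 for Cyp2b9 with Cyp2b13, and 1 to 5 members called. In these fits 78 to 488 genes of all were lower and 87 to 434 higher. Over all genes, the lower and higher calls were 869 and 966 by the likelihood ratio test, 814 and 933 by the exact test, 1155 and 938 by DESeq2, 297 and 1042 with library size alone and 1532 and 1696 by fold change and unadjusted p. DESeq2 called 17 other Cyp2 genes lower and 2 higher, 10 CAR and PXR targets lower, 3 regulators lower, 7 periportal genes lower, 2 male-biased genes lower and 5 higher, and 5 neighbours lower. Library size alone gave 1 other Cyp2 gene, 2 targets and 3 male-biased genes higher, and 1 neighbour lower. With a library left out, the other Cyp2 genes had 6 to 10 lower and 0 to 1 higher calls, the targets 2 to 6 and 0 to 1, the male-biased genes 0 to 3 and 0 to 6, and the neighbours 0 to 2 and 0 to 2, while 4 to 10 centrilobular genes were lower, 0 to 4 periportal genes were lower and 0 to 1 higher, and 0 to 1 female-biased genes were higher. The causes of these changes were not tested. Levels per kilobase with library size alone were 106 (Cyp2a5, APAP), 186 (Cyp2a12, APAP), 28.1 (Cyp2a22, saline), 31.5 (Cyp2b10, saline) and 6.43 (Cyp2b10, APAP). With the coding transcript as length they were 375 and 322 (Cyp2a12, saline and APAP), 59.8 and 17.9 (Cyp2a22, saline and APAP) and 38.8 (Cyp2b10, saline). Leaving out a library gave 78.8 to 92.5 (Cyp2a5, APAP), 135 to 165 (Cyp2a12, APAP), 30.2 to 33.7 (Cyp2a22, saline), 4.66 to 5.71 (Cyp2b10, APAP), 10.4 to 43.1 (Cyp2a4, APAP), 21.2 to 61.5 (Cyp2b9, APAP) and 0.124 to 1.98 (Cyp2b13, APAP). Depth limits what can be said of Cyp2b23, at 0 counts, and of Cyp2b13 in APAP3, at 4 counts.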
